A study of Mus musculus with 4 samples.

Results

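The genes described here belong to the machinery of vesicle traffic: the Rab GTPases, the SNARE proteins and their syntaxin-binding partners, the synaptotagmin-like proteins and Munc13-4 (Unc13d). They were taken by symbol, as rows named Rab, Stx, Stxbp, Vamp, Snap or Sytl with a number, or Unc13d. The rule itself uses no measured level, but it was chosen with earlier results of these data known. The rule took 98 of 21025 rows, which carry 97 symbols. Natural killer (NK) cells had been sorted from the livers of C57BL/6 mice by flow cytometry, and their polyA RNA was sequenced in 4 libraries. TRAIL+ cells (2 libraries) displayed the death ligand TRAIL and lacked CD49b, and CD49b+ cells (2 libraries) displayed the integrin CD49b and lacked TRAIL. The gate of each subset also required NK1.1 and NKp46 and excluded cells with surface TCR beta, and no genotype, treatment or age is given for either group. Whether the libraries of a subset are from different mice is not stated, so the p-values reflect how far these libraries vary, and that variation may be technical. In bulk RNA, fewer cells of a type and less RNA per cell cannot be told apart.

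Rab proteins are small GTPases that mark membrane compartments and recruit motors, tethers and fusion factors to vesicles. SNAREs then pull a vesicle and its target membrane together: a vesicle SNARE such as a VAMP pairs with a syntaxin and a member of the SNAP-25 family, and Munc18 proteins (Stxbp) hold or release the syntaxin. In cytotoxic lymphocytes, lytic granules carrying perforin and granzymes dock at the immune synapse through Rab27a and Munc13-4, and fuse with the help of syntaxin 11 and Munc18-2 (Stxbp2). In human patients, inherited loss of any of these 4 factors impairs granule release and leads to hyperinflammation.

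The libraries were shallow, at 3786497 to 4232967 reads behind the RPKM values (reads per gene, scaled by its length and by the depth of the library). The genes of the gate followed the labels: Tnfsf10, which encodes TRAIL, averaged 199 ± 13.2 RPKM in TRAIL+ libraries and 7.10 ± 0.226 in CD49b+ libraries (SD, n = 2 each), and Itga2, which encodes CD49b, averaged 3.41 ± 2.62 RPKM in TRAIL+ and 44.5 ± 10.7 in CD49b+ libraries. All 5 NK cell markers were present, at summed levels of 6511 and 8137 RPKM in TRAIL+ and 7455 and 8685 in CD49b+ libraries. Of 4 T-cell marker genes with a row, all 3 tested were higher in TRAIL+ cells, with summed levels of 55.4 and 107 RPKM in TRAIL+ and 14.9 and 14.2 in CD49b+ libraries, and none of the 4 was at 0 in every library. Markers of Kupffer cells and monocytes were high in replicate 1 of each subset, at summed levels of 93.7 and 15.2 RPKM in TRAIL+ and 134 and 14.8 in CD49b+ libraries, as were those of hepatocytes, at 18.1 and 3.64 RPKM in TRAIL+ and 17.7 and 1.28 in CD49b+ libraries. Neutrophil markers followed the same pattern with Elane at 0, B-cell markers summed to 12.2 to 23.3 RPKM, and those of platelets and of mast cells to 0.0733 to 1.89. The endothelial list reached 41.5 to 53.0 RPKM almost wholly through Pecam1, with Lyve1 at 0. The part that any of these markers have in the traffic genes was not tested.

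Few of the traffic genes passed the test for a difference between the subsets. Of the 68 members that passed the filter on low values, 3 were higher in TRAIL+ cells (Sytl1, Rab4a, Rab8b), 3 were lower (Rab31, Stx11, Sytl3), and 62 did not pass the test (limma on log2(RPKM + 1), Benjamini-Hochberg adjusted p threshold 0.05 over 10047 genes). The share of members called was 8.82%, against 8.62% of all genes tested. By direction, 4.41% of members were higher, against 4.76% of all genes, and 4.41% were lower, against 3.86%. The median log2 fold change was 0.08 over the members and 0.00 over all genes, and its median size without sign was 0.19 and 0.24. For 53 members (77.9%) the 95% interval of the fold change lay within 2-fold in either direction, against 64.4% of all genes. Libraries of the subsets did not overlap for 33 members (48.5%), against 46.8% of all genes. As a class, then, the members were called about as often as any gene of these libraries. An unadjusted p under 0.05 (limma) was reached by 10 members and by 2006 of the 10047 genes. Calls in the role groups below rest on few genes and were not tested against these shares.

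**Figure D1:**
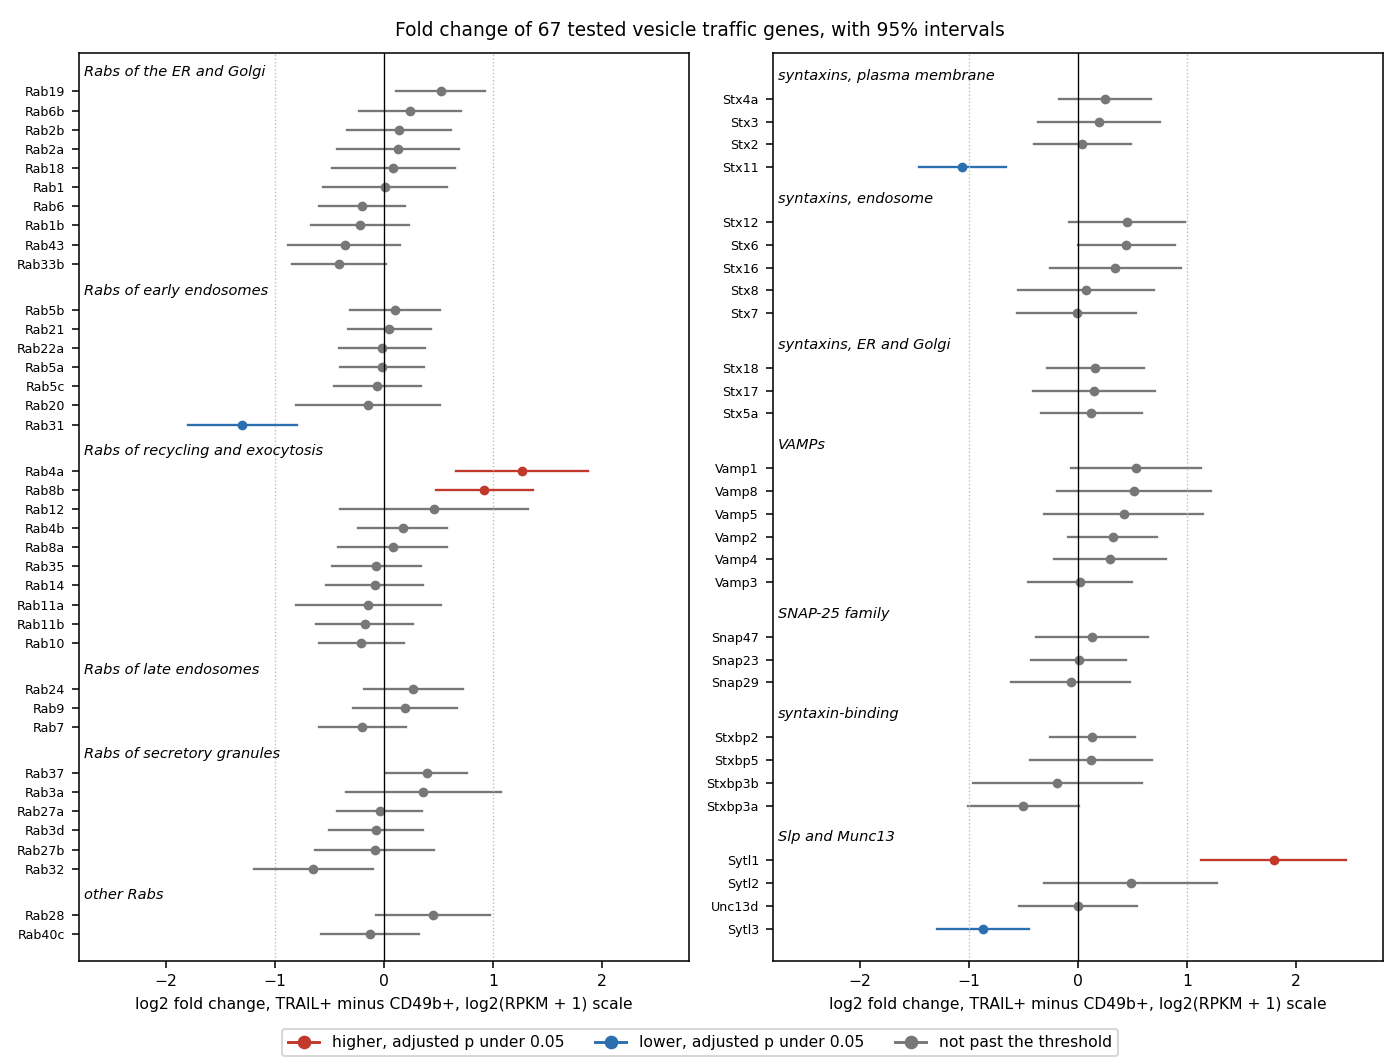
Log2 fold change of 67 of the 68 tested members (x axis, TRAIL+ minus CD49b+ on the log2(RPKM + 1) scale), one gene per line by role, with 95% intervals from limma and dotted lines at 2-fold. Red and blue points mark the 3 higher and 3 lower genes, and the other genes are grey.

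The calls rested on few libraries. Leaving out CD49b+ replicate 1 ended every call, and leaving out CD49b+ replicate 2 ended every call but that of Sytl1. Calls among all genes tested also fell in these fits, which left 1 CD49b+ library each. No member lost its call when either TRAIL+ library was left out. Without a filter on low values, Rab4a, Rab8b and Sytl3 were no longer called. Voom on reads worked out from the RPKM values called the same 6 genes.

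Among the synaptotagmin-like proteins, which bind Rab27 on secretory vesicles and link it to the plasma membrane, members moved in opposite directions. Sytl1, which encodes Slp1, stood at 8.99 and 8.85 RPKM in TRAIL+ libraries, against 1.34 and 2.49 in CD49b+ libraries. Both TRAIL+ libraries were above both CD49b+ libraries, and the means of 8.92 ± 0.0990 and 1.92 ± 0.814 RPKM (SD, n = 2 each) were 4.66-fold apart. The log2 fold change was 1.80 ± 0.26 (SE, limma adjusted p = 0.0145), and the adjusted p ranged from 0.000819 to 0.0812 over the alternatives, the highest of them without CD49b+ replicate 1. The gene rested on 71 and 65 reads in TRAIL+ and 11 and 19 in CD49b+ libraries.

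Sytl3, which encodes Slp3, stood at 27.7 and 33.4 RPKM in TRAIL+ libraries, against 57.5 and 55.4 in CD49b+ libraries. The groups did not overlap, and the log2 fold change was -0.87 ± 0.17 (limma adjusted p = 0.0365, 0.00297 to 0.366 over the alternatives). In the GENCODE annotation of GRCm38, exons of Sytl3 overlap those of Ezr, an actin linker gene on the opposite strand. The use of strand in counting is not given, so reads of the 2 genes cannot be told apart where they overlap. The extent of the overlap was not measured. Ezr stood at 158 and 109.9 RPKM in TRAIL+ and 203 and 161 in CD49b+ libraries, with a log2 fold change of -0.45 ± 0.24 that did not pass the test (limma adjusted p = 0.404). Of the 6 called members, Sytl3 alone had an annotated gene overlapping its exons.

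Sytl2, which encodes Slp2 and also binds Rab27a, stood at 40.4 and 23.4 RPKM in TRAIL+ libraries, against 26.1 and 18.0 in CD49b+ libraries. Its groups overlapped and its log2 fold change of 0.49 ± 0.32 did not pass (limma adjusted p = 0.517). Sytl4 had 0 reads in TRAIL+ and 1 in CD49b+ libraries, and Sytl5 was at 0 throughout. The summed level of Sytl1, Sytl2 and Sytl3 was 77.1 and 65.7 RPKM in TRAIL+ and 85.0 and 75.9 in CD49b+ libraries, and these ranges overlapped. Within that sum, the level of Sytl1 over that of Sytl3 was 0.324 and 0.265 in TRAIL+ libraries, against 0.0233 and 0.0449 in CD49b+ libraries. These genes were called in opposite directions, so the difference in their ratio follows from those calls. In each library Sytl1 was below Sytl3.

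Syntaxin 11 (Stx11), the syntaxin of lytic granule fusion, stood at 23.1 and 24.3 RPKM in TRAIL+ libraries, against 53.9 and 47.4 in CD49b+ libraries. The groups were well separated, at means of 23.7 ± 0.843 and 50.6 ± 4.59 RPKM (SD, n = 2 each), 2.13-fold apart. The log2 fold change was -1.06 ± 0.16 (limma adjusted p = 0.0161, 0.000948 to 0.238 over the alternatives). For the granule cargo, 2 genes added outside the rule for genes given with values moved in opposite directions. Perforin (Prf1), the pore-forming cargo, was lower, at 331 and 308 RPKM in TRAIL+ and 1872 and 1802 in CD49b+ libraries (log2 fold change -2.52, limma adjusted p = 0.00235). Granzyme B (Gzmb), a protease of the same granules, was higher, at 4047 and 4564 RPKM in TRAIL+ and 1352 and 1597 in CD49b+ libraries (1.55, adjusted p = 0.0303). Leaving out CD49b+ replicate 1 (adjusted p = 0.778) or CD49b+ replicate 2 (0.537) ended the call of Gzmb, a gene with close copies that may share its reads, as did testing without a filter (0.118), in a range of 0.00322 to 0.778 over the alternatives. Stxbp2, whose product Munc18-2 is the partner of syntaxin 11, stood at 25.9 and 26.9 RPKM in TRAIL+ libraries, against 23.6 and 24.3 in CD49b+ libraries. The level of Stx11 over that of Stxbp2 was therefore 0.894 and 0.905 in TRAIL+ libraries, against 2.28 and 1.95 in CD49b+ libraries.

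Other syntaxins of the plasma membrane did not pass the test. Stx3 stood at 2.46 and 3.12 RPKM in TRAIL+ libraries, against 2.37 and 2.24 in CD49b+ libraries (log2 fold change 0.19). Stx4a stood at 37.3 and 44.0 RPKM in TRAIL+ libraries, against 35.0 and 32.7 in CD49b+ libraries (0.25). The limma adjusted p was 0.758 for Stx3 and 0.526 for Stx4a, and the difference between their fold changes and that of Stx11 was not tested. In the same group, Stx2 did not pass, Stx19 was above 0 in 1 library, and the neuronal Stx1a was at 0.

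The Rabs of recycling and exocytosis held 2 of the higher members. Rab8b, which acts in transport to the cell surface, stood at 145 and 170.5 RPKM in TRAIL+ libraries, against 76.9 and 88.4 in CD49b+ libraries. Both TRAIL+ libraries were above both CD49b+ libraries, at means of 158 ± 17.7 and 82.7 ± 8.19 RPKM (SD, n = 2 each), and the log2 fold change was 0.92 ± 0.18 (limma adjusted p = 0.0337, 0.00114 to 0.453 over the alternatives). It was the most deeply covered of the 6, with 2817 and 3071 reads in TRAIL+ and 1548 and 1655 in CD49b+ libraries. Its near relative Rab8a stood at 169 and 218 RPKM in TRAIL+ libraries, against 171 and 194 in CD49b+ libraries (log2 fold change 0.08, limma adjusted p = 0.906). The level of Rab8b over that of Rab8a was 0.860 and 0.782 in TRAIL+ libraries, against 0.450 and 0.455 in CD49b+ libraries, a difference that follows from the call of Rab8b. Summed, the pair reached 314 and 388 RPKM in TRAIL+ and 247 and 283 in CD49b+ libraries.

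Rab4a, a Rab of fast recycling from early endosomes, stood at 11.2 and 14.5 RPKM in TRAIL+ libraries, against 3.99 and 5.55 in CD49b+ libraries. The means of 12.9 ± 2.31 and 4.77 ± 1.10 RPKM (SD, n = 2 each) were 2.70-fold apart, and the log2 fold change was 1.27 ± 0.24 (limma adjusted p = 0.0337, 0.00171 to 0.270 over the alternatives). It rested on 65 and 78 reads in TRAIL+ and 24 and 31 in CD49b+ libraries. Rab4b, given here as the relative of Rab4a after its values had been seen, was the more abundant of the pair, at 52.3 and 60.8 RPKM in TRAIL+ libraries, against 48.7 and 51.4 in CD49b+ libraries (log2 fold change 0.17, limma adjusted p = 0.699). The remaining tested Rabs of this group (Rab10, Rab11a, Rab11b, Rab12, Rab14 and Rab35) did not pass.

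Rab31, an early endosome and trans-Golgi Rab related to Rab22a, stood at 3.67 and 3.56 RPKM in TRAIL+ libraries, against 9.56 and 11.2 in CD49b+ libraries. Both TRAIL+ libraries were below both CD49b+ libraries. The means of 3.62 ± 0.0728 and 10.4 ± 1.19 RPKM (SD, n = 2 each) were 2.88-fold apart, and the log2 fold change was -1.30 ± 0.20 (limma adjusted p = 0.0165, 0.00216 to 0.182 over the alternatives). Rab22a, likewise added after its values had been seen, did not pass. The level of Rab31 over that of Rab22a was 0.142 and 0.131 in TRAIL+ libraries, against 0.343 and 0.434 in CD49b+ libraries. This difference follows from the call of Rab31.

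**Figure D2:**
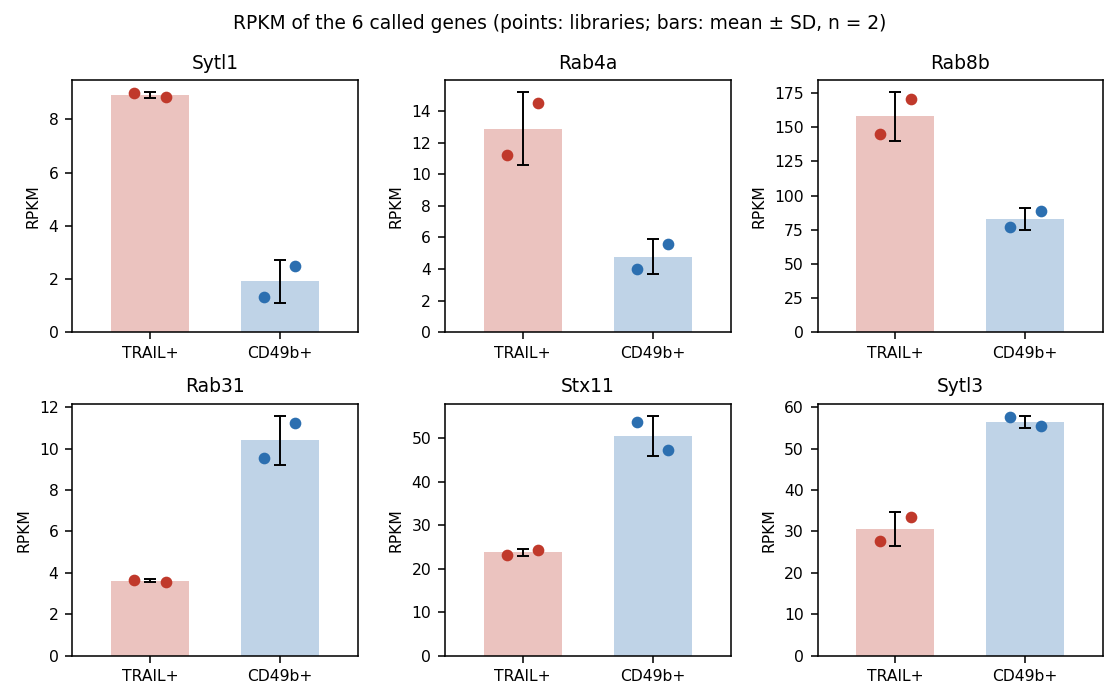
RPKM of the 6 called members (y axes start at 0 and differ between panels) in TRAIL+ and CD49b+ libraries, with points for libraries, bars for means and whiskers for SD, n = 2 each. Sytl1, Rab4a and Rab8b are higher in TRAIL+ cells and Rab31, Stx11 and Sytl3 are lower. The libraries of the subsets do not overlap in any panel, a separation that selection by a call favours.

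**Figure D3:**
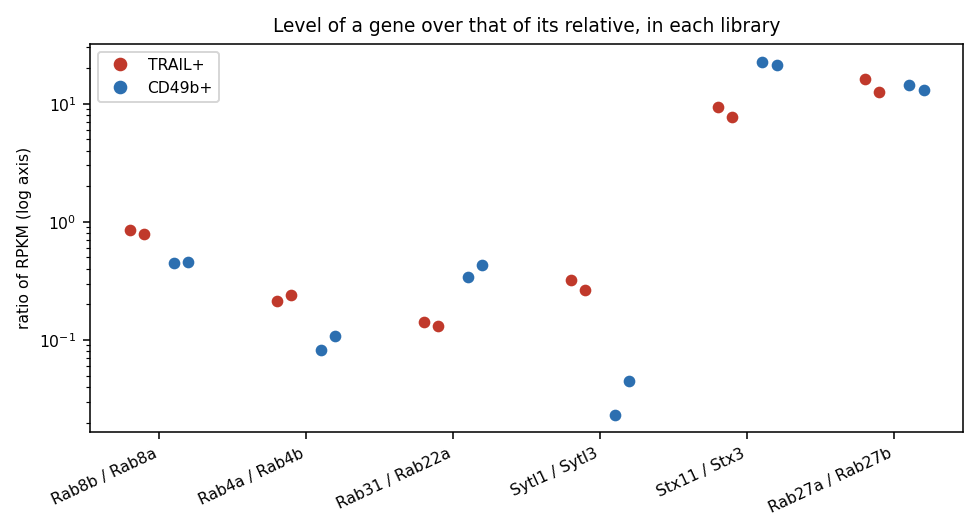
Ratio of the RPKM of a gene to that of a relative (log axis) in each TRAIL+ and CD49b+ library. The ratio of Rab8b to Rab8a is 0.860 and 0.782 in TRAIL+ and 0.450 and 0.455 in CD49b+ libraries. That of Rab27a to Rab27b, genes that were not called, overlaps between the subsets. Each of the other ratios holds a called gene, so its difference follows from the choice of pairs.

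Promoter sequence is shown for Sytl1 and Sytl3, the pair that moved in opposite directions, for Stx11 and Rab8b, and for Rab27a, the granule Rab that did not pass the test. RefSeq (GRCm38.p6) windows of 300 bases, 250 before and 50 after the annotated start, were found for 80 of the 98 rows, for 57 of the 68 tested members and for 5 of the 6 called ones (not Rab4a). The stretches are on the gene's strand, 5′ to 3′, and end at the base before the annotated start except for Rab27a, which ends 51 bases before it. Bases after the start were found in a GENCODE transcript of the gene, in the same sense, for Sytl1 and Stx11. They were not found for Sytl3, Rab8b and Rab27a, so the starts of these genes, and motif positions counted from them, are less certain. Capitals mark matches to any of 12 motifs searched on both strands.
Sytl1 (chr4:133263088-133263187, minus strand): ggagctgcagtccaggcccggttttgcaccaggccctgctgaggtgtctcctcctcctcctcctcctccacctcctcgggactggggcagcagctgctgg
Sytl3 (chr17:6658959-6659058, plus strand): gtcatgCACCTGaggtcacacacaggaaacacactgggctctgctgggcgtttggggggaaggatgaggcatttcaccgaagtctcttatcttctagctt
Stx11 (chr10:12964260-12964359, minus strand): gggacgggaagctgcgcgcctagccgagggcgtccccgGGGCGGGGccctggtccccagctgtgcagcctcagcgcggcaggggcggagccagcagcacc
Rab8b (chr9:66919706-66919805, minus strand): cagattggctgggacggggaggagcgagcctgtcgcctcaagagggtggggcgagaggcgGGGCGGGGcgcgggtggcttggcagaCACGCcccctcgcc
Rab27a (chr9:73044660-73044759, plus strand): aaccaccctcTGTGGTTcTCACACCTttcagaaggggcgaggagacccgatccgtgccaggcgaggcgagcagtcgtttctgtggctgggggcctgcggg

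In these stretches the capitals of Stx11 are a GC box (CCCCGCCC, which binds Sp and Klf factors), those of Rab8b a GC box and the core of the aryl hydrocarbon receptor site (GCGTG), and those of Sytl3 an E-box of the kind ZEB factors bind (CAGGTG). Rab27a holds a RUNX motif (TGTGGTT) and, a base further on, a T-box motif (AGGTGTNA). Sytl1 has no match in the stretch shown and a RUNX motif further upstream, 171 to 165 bases before the start. Also outside the stretches, receptor cores lie 117 to 113 bases before the start of Stx11 and 175 to 171 before that of Rab8b. Rab27a has the core 220 to 216 bases and the E-box 50 to 45 bases before its start. Rab31, a called member whose sequence is not shown, has no match. The GC box was in the windows of 42.1% of the 57 tested members, against 38% of 8057 tested genes and 17.6% of all 32851 windows. The receptor core was in 54.4% of tested members, against 57.4% of tested genes and 32.4% of all windows, and the E-box in 22.8%, against 19.8% and 20.2%. The RUNX motif was in 8.77% of tested members, against 4.64% of tested genes and 5.27% of all windows, which for members is a count of 5. The T-box motif was in 1.75% of tested members, against 2.72% and 3.03%.

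The other motifs had no match in the windows of called members, and their shares of tested members, tested genes and all windows were as follows. The NFIL3 motif (TTANGTAA) was in 1.75%, 1.76% and 2.32%, and the ETS motif (CCGGAAGT) in 3.51%, 10.5% and 3.89%. The TATA box (TATAAA) was in 5.26%, 8.09% and 13.6%, the TCF motif (CTTTGAT) in 0%, 3.04% and 3.73%, and the BLIMP-1 motif in 0%, 0.509% and 0.253%. The cyclic AMP response element (TGACGTCA) was in 3.51%, 3.76% and 1.79%, and the IRF motif in 3.51%, 3.90% and 3.44%. A T-box match can share letters with the E-box where they overlap. These matches are letters in a window and carry no measurement of binding.

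Rabs of secretory granules and lysosome-related organelles held no called gene among 6 tested (limma, 2 at an unadjusted p under 0.05, and 0 called by voom). Rab27a, which tethers lytic granules, stood at 57.7 and 53.4 RPKM in TRAIL+ libraries, against 54.9 and 59.5 in CD49b+ libraries. The ranges overlapped, and the log2 fold change of -0.04 had a 95% interval of -0.43 to 0.35 (limma adjusted p = 0.937). Rab27b stood at 3.55 and 4.26 RPKM in TRAIL+ libraries, against 3.85 and 4.53 in CD49b+ libraries, so that Rab27a was the main form in each library, at 12.5 to 16.3 times the level of Rab27b. Rab3d, a Rab of secretory granules, also overlapped, at 28.9 and 33.4 RPKM in TRAIL+ and 30.7 and 34.7 in CD49b+ libraries.

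Rab37, known in mast cells and other secretory cells, stood at 63.7 and 61.1 RPKM in TRAIL+ libraries, against 48.0 and 46.8 in CD49b+ libraries. Its groups did not overlap, but the log2 fold change of 0.39 did not pass (limma adjusted p = 0.230). Rab32, which acts in the making of lysosome-related organelles, stood at 3.82 and 5.14 RPKM in TRAIL+ libraries, against 7.35 and 7.66 in CD49b+ libraries (log2 fold change -0.65, limma adjusted p = 0.176). Rab7, the Rab of late endosomes and lysosomes, stood at 87.5 and 78.5 RPKM in TRAIL+ libraries, against 92.0 and 98.6 in CD49b+ libraries (-0.20, adjusted p = 0.620).

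Unc13d, whose product Munc13-4 primes lytic granules as an effector of Rab27a, stood at 47.9 and 34.0 RPKM in TRAIL+ libraries, against 43.2 and 37.6 in CD49b+ libraries. The CD49b+ libraries lay between the TRAIL+ ones, and the log2 fold change of 0.00 had a 95% interval from -0.54 to 0.54 (limma adjusted p = 0.997). Stxbp2 had a log2 fold change of 0.13 with an interval of -0.26 to 0.52 (limma adjusted p = 0.758). Of the 4 factors whose loss impairs granule release in patients, Stx11 was thus the called member.

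**Figure D4:**
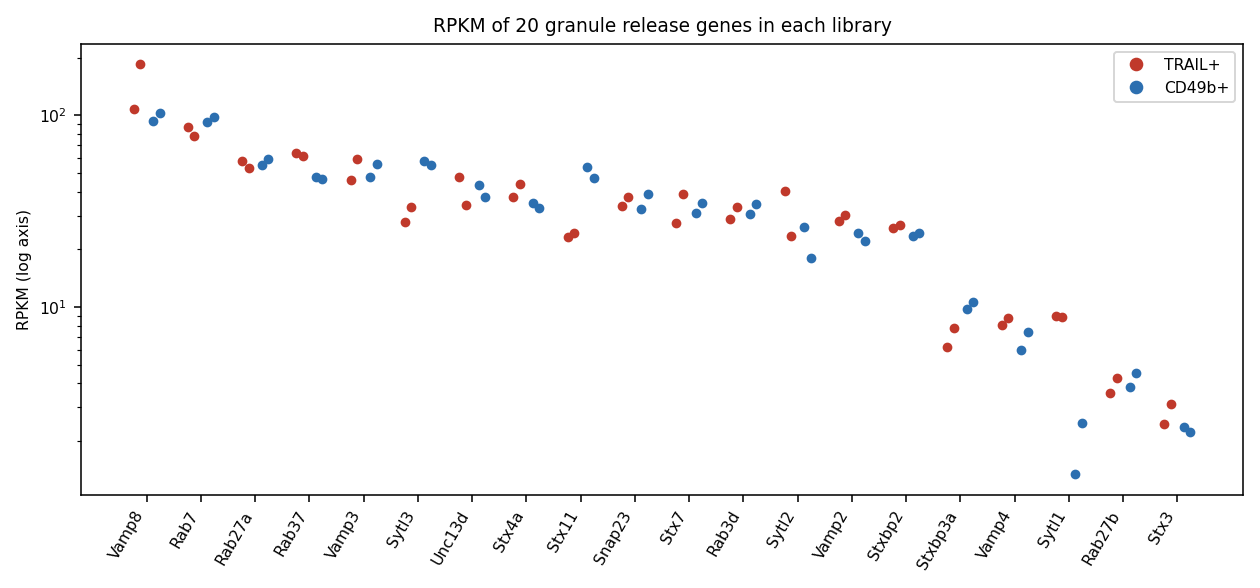
RPKM of 20 of the 21 granule release genes (log axis) in each TRAIL+ and CD49b+ library, ordered by mean level. Sytl3 and Stx11 are lower and Sytl1 is higher in TRAIL+ libraries, and the points of Rab27a, Unc13d and Snap23 overlap between the subsets.

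The list of granule release holds 21 genes, all of them tested, of which 1 was higher (Sytl1), 2 were lower (Sytl3, Stx11) and 18 did not pass, and the median log2 fold change was 0.02, against 0.00 over all genes tested. The share called was 14.3%, on 3 genes, against 8.62% of all genes tested. Snap23, the SNAP-25 family member of non-neuronal cells, stood at 33.9 and 37.7 RPKM in TRAIL+ libraries, against 32.6 and 38.8 in CD49b+ libraries (log2 fold change 0.01). Stx7, a syntaxin of late endosomes, stood at 27.4 and 38.8 RPKM in TRAIL+ libraries, against 31.1 and 35.0 in CD49b+ libraries (-0.01). For both genes the libraries of the subsets overlapped.

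The VAMPs, the vesicle SNAREs, held no called gene among 6 tested (limma and voom, 0 at an unadjusted p under 0.05 in limma). Their fold changes were all positive, against 5077 of 10047 genes tested, with a median of 0.37 on the log2 scale. That of Vamp3 turned to -0.01 under quantile normalization, -0.15 without TRAIL+ replicate 2 and -0.09 without CD49b+ replicate 1. The shared direction was not tested. Vamp8, an endosomal SNARE that takes part in regulated exocytosis, was the most abundant, at 108 and 185 RPKM in TRAIL+ libraries, against 93.7 and 103 in CD49b+ libraries. TRAIL+ replicate 2 stood apart from the other libraries, and the log2 fold change of 0.51 did not pass (limma adjusted p = 0.417). The fold change was 0.90 without TRAIL+ replicate 1 and 0.13 without TRAIL+ replicate 2. Whether Vamp8 passed depended on which TRAIL+ library was kept. Vamp3, of recycling endosomes, stood at 46.2 and 58.9 RPKM in TRAIL+ libraries, against 47.5 and 55.8 in CD49b+ libraries. Vamp2, best known from synaptic vesicles and used for granule fusion in mouse T cells, stood at 28.2 and 30.2 RPKM in TRAIL+ libraries, against 24.4 and 22.0 in CD49b+ libraries.

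Lower VAMPs showed the same direction without passing. Vamp4, of the trans-Golgi network, stood at 8.03 and 8.73 RPKM in TRAIL+ libraries, against 5.95 and 7.41 in CD49b+ libraries. Vamp1 stood at 2.88 and 2.17 RPKM in TRAIL+ libraries, against 1.57 and 1.29 in CD49b+ libraries (log2 fold change 0.53, limma adjusted p = 0.310). Vamp7 was not analysed here. Endosomal syntaxins (Stx6, Stx7, Stx8, Stx12, Stx16) gave 0 calls of 5, those of the endoplasmic reticulum and Golgi (Stx5a, Stx17, Stx18) 0 of 3, and the SNAP-25 family (Snap23, Snap29, Snap47) 0 of 3, by limma and by voom. None of these 11 genes had an unadjusted p under 0.05, and Snap25, the neuronal form, was at 0 in every library.

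Syntaxin-binding genes gave 0 calls among 5 tested (limma and voom, 1 at an unadjusted p under 0.05 in limma). Stxbp3a, now named Stxbp3, stood at 6.18 and 7.73 RPKM in TRAIL+ libraries, against 9.74 and 10.7 in CD49b+ libraries (log2 fold change -0.50, limma adjusted p = 0.260). Stxbp3b is a near copy of Stxbp3a that could share its reads, so both are uncertain. The groups of Stxbp3a did not overlap.

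Rabs of the endoplasmic reticulum and Golgi gave 0 calls among 10 tested (limma and voom, 1 at an unadjusted p under 0.05 in limma). That gene was Rab19, at 55.4 and 65.0 RPKM in TRAIL+ libraries, against 42.6 and 40.7 in CD49b+ libraries (log2 fold change 0.52, limma adjusted p = 0.149). It passed without TRAIL+ replicate 1 (0.63, adjusted p = 0.0466) and with the replicate number as a term (0.0321). Rab1b, of transport between these compartments, was among the most abundant members, at 160.2 and 196 RPKM in TRAIL+ libraries, against 204 and 209.9 in CD49b+ libraries. Rab5c, an early endosome Rab, had the highest mean level of all members, at 200.3 and 205 RPKM in TRAIL+ libraries, against 211 and 213 in CD49b+ libraries.

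By mean over the 4 libraries, Rab5c (207 RPKM), Rab1b (192) and Rab8a (188) led the members, and their ranges over libraries overlapped. Vamp8 (122) and Rab8b (120) followed and also overlapped. Of the early endosome Rabs, the Rab5 genes together reached 272 and 280 RPKM in TRAIL+ and 280 and 285 in CD49b+ libraries, and of 7 tested in this class Rab31 was the call. Tested Rabs of late endosomes (Rab7, Rab9, Rab24) and the remaining Rabs (Rab28, Rab40c) gave 0 calls of 5, none at an unadjusted p under 0.05 (limma, and 0 by voom).

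The other 30 members were at or near 0. Of these, 18 rows were at 0 in every library, among them Rab3b, Rab3c, Rab9b, Rab13, Rab15, Rab25, Rab26, Rab33a, Rab40b, Rab42, Rab44, Snap25, Snap91, Stx1a, Stxbp5l, Sytl5 and a second row named Rab4b. By accession that second row belongs to Mia in RefSeq, and Snap91 encodes a clathrin assembly protein that is no SNARE. A count of 3 reads over the 4 libraries would have given these rows 0.0222 to 0.331 RPKM, depending on gene length. Levels below that could have been missed at this depth. The 12 members below the filter were Rab17, Rab23, Rab30, Rab34, Rab36, Rab38, Rab39, Rab39b, Stx19, Stxbp4, Stxbp6 and Sytl4. Rab39, singled out after its values were seen, had 2 reads in TRAIL+ and 11 in CD49b+ libraries, so its level was 5.29 times higher in CD49b+ cells (exact 95% interval from counting, 1.16 to 49.1). For Rab39b, with 1 read in TRAIL+ and 6 in CD49b+ libraries, the interval of 0.701 to 266 included no difference. Only counting error enters these intervals and the floor of 3 reads.

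Genes that work with the members were read from lists of Rab regulators, other SNAREs and cofactors, tethers, granule biogenesis and motor genes, and calcium sensors. Of 134 rows, 100 were tested, 3 were higher and 3 were lower in TRAIL+ cells and 94 did not pass, a share called of 6%, against 8.62% of all genes tested. Among 17 tethers, subunits of the exocyst, HOPS and CORVET complexes and Eea1, limma called 0, with 0 at an unadjusted p under 0.05, and voom called 0. Of all 10047 genes tested, limma called 866, and 2006 had an unadjusted p under 0.05. Rab11fip1, an effector of Rab11 in recycling, stood at 12.9 and 6.76 RPKM in TRAIL+ libraries, against 2.19 and 2.65 in CD49b+ libraries. The TRAIL+ libraries differed from each other but stayed above both CD49b+ libraries (log2 fold change 1.61, limma adjusted p = 0.0422).

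The granule biogenesis list held calls in both directions. Cd63, a tetraspanin of lysosomes and granules, stood at 5.42 and 10.4 RPKM in TRAIL+ libraries, against 0 and 0.732 in CD49b+ libraries. It rested on 64 reads in TRAIL+ libraries and on 3 in CD49b+ libraries, all in replicate 2, or 22.2 times the level in CD49b+ cells (exact 95% interval from counting, 7.25 to 110.3; log2 fold change 2.70 ± 0.41, limma adjusted p = 0.0154). The call was lost with a pseudocount of 0.1 (adjusted p = 0.0601) and under voom (0.0608). Lamp1, the lysosomal membrane protein that reaches the surface on degranulation, stood at 68.3 and 74.8 RPKM in TRAIL+ libraries, against 125 and 124 in CD49b+ libraries (-0.80, adjusted p = 0.0356). Muted, now named Bloc1s5, a subunit of the BLOC-1 complex, stood at 16.9 and 16.8 RPKM in TRAIL+ libraries, against 8.66 and 8.60 in CD49b+ libraries (0.89, adjusted p = 0.0354).

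Syt11, a synaptotagmin, stood at 6.39 and 5.66 RPKM in TRAIL+ libraries, against 14.7 and 13.8 in CD49b+ libraries (log2 fold change -1.12, limma adjusted p = 0.0214). Scfd2, of the Sec1/Munc18 family, stood at 5.14 and 4.79 RPKM in TRAIL+ libraries, against 10.9 and 9.89 in CD49b+ libraries (-0.94, adjusted p = 0.0433). Groups did not overlap for 46.8% of all genes tested, and selection by a call favours such separation. All of these 6 companion genes had groups that did not overlap. Of them, Rab11fip1, Lamp1, Muted, Syt11 and Scfd2 lost their call without either CD49b+ library, with limma adjusted p of 0.102 to 0.452. Without a filter the calls of Rab11fip1 (adjusted p = 0.0908), Scfd2 (0.0830) and Muted (0.0561) were lost as well, and that of Scfd2 also without TRAIL+ replicate 2 (0.0579).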

How the data were processed

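The deposited values are RPKM per gene, computed by the authors, per the file headers. The submitters' processing notes name TopHat 1.4.1 and build mm9. How reads were counted, with which annotation, filters and strand setting, is not given in the sources used here. Sample titles gave the groups and replicate numbers. Symbols were matched by accession (95 of the 98 rows) to RefSeq of GRCm38.p6, a later build, so promoter coordinates are those of RefSeq and no others are given. The 10047 genes that reached an RPKM of 1 in 2 or more libraries were tested on log2(RPKM + 1) in limma 3.58.1 (R 4.3.3), with a trended prior, coded TRAIL+ minus CD49b+. The model had 2 residual degrees of freedom and a prior of 3.51, and an adjusted p under 0.05 is a call. Fold changes on this scale understate those of low genes. Unlogged folds are ratios of group means, larger over smaller. With 2 against 2 libraries an exact permutation p cannot go below 0.333, so none was used.

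Reads were recovered from the steps in which RPKM values move, and were whole within a relative tolerance of 1e-06 for 100% of 13681 rows above 0. The rule that chose each gene length was settled after the values had been seen. Lengths came within 10% of annotation for 80.7% of 10859 rows that could be checked, a share that the rule itself raised, and reads of the other rows can be off by a whole factor. All 7 genes above 0 whose reads are printed are within 10%. Counting intervals rest on these reads. The members, lists, roles and the rule for genes given with values (calls, the granule release list, the 5 highest means, the 6 largest changes that missed the threshold, and called companions) were chosen with earlier results of these data known. Values of 2 members are not reported here. The motifs searched were chosen with these data in view. The code was tested on simulated data. Alternatives were another pseudocount, other filters, quantile normalization, voom on reads, each library left out, and a replicate term.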

Additional observations from a re-analysis of the deposited data

How the results depend on the processing

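Members called higher and lower numbered 3 and 3, and genes called higher and lower 478 and 388. Without a filter, 1 member was higher. With each library left out in turn, 0 to 5 members were higher and 0 to 3 lower, and 245 to 777 genes were higher and 198 to 763 lower. The samples share replicate numbers, which nothing in the labels ties to a mouse or day. Across the 10047 genes tested, the difference between replicates 1 and 2 in TRAIL+ libraries correlated at 0.563 with that in CD49b+ libraries. This rests on 2 pairs of libraries. With a replicate block, 1049 genes were higher and 833 lower, and 7 members were called, Rab19 being the added gene. Log2 fold changes near 0 that turned sign were all of members that were not called. Under quantile normalization these were Unc13d (-0.02), Snap23 (-0.03) and Vamp3 (-0.01). With each library left out in turn the fold change crossed 0 for 8 genes: Rab27b (-0.19 to 0.02), Rab3d (-0.17 to 0.03), Rab27a (-0.10 to 0.01), Stx7 (-0.26 to 0.23), Unc13d (-0.24 to 0.24), Snap23 (-0.11 to 0.13), Vamp3 (-0.15 to 0.19) and Rab8a (-0.11 to 0.26). The cause was not tested. Of 356 values of 36 named genes under the alternatives, 304 kept direction and side of the threshold. Depth limits the low genes: the call of Rab4a rests on 55 reads in its lower group.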
